A study of Oryza sativa Japonica Group with 31 samples.

Results

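A set of 10 genes of the cell cycle and of DNA replication was followed in rice leaf with and without cold, picked by locus identifier out of the 55801 loci of the RNA-seq table. The list holds PCNA, both subunits of a ribonucleotide reductase (RNRL1 and RNRS1), 3 cyclin-dependent kinases (CDKA-1, CDKB1-1 and CDKB2-1), 3 B-type cyclins (CYCB1-1, CYCB2-1 and CYCB2-2) and the kinase inhibitor KRP1. All 10 were found, and all 10 were above 0 in both columns. The series is about R-loops, in which RNA pairs with one DNA strand and displaces the other, and about their relation to the activity of cold-responsive rice genes.

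Cold seedlings of wild-type Nipponbare, the japonica cultivar behind the rice reference genome, were held at 4 °C for 24 h from day 13. Control seedlings of the same cultivar remained at a day temperature of 28 °C and a night temperature of 22 °C. Both were grown in culture medium, with light and dark periods of 12 h each. The labels list 2 RNA-seq libraries of cold seedlings and 2 of control seedlings, out of 31 libraries in the series, and the other 27 were not used here. The tissue field of the RNA-seq libraries says leaf while the protocols speak of collected seedlings. Growing tissue at the leaf base, or beyond the leaf, may or may not be included. Markers of leaf could not be checked, since no reference used here names the locus identifiers.

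The values are FPKM, that is, fragments scaled by locus length and by the mapped fragments of the library, so levels of different genes can be set side by side. The table has 1 column per treatment. No value below has a replicate error, the spread between libraries of a treatment could not be estimated, and nothing was tested. How many reads stand behind a column is unknown. Summed over all loci, the columns reached 554475 FPKM in cold and 584870 FPKM in control. In bulk tissue, fewer dividing cells and less RNA per dividing cell cannot be told apart.

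A plant cell copies its DNA in S phase and divides in M phase. PCNA is the ring that clamps DNA polymerase to the template, and ribonucleotide reductase makes the deoxynucleotides for the new strands. Cyclin-dependent kinases, active only when bound to a cyclin, drive the passage from one phase to the next. CDKA is present through the whole cycle, CDKB kinases are special to plants and act from late S phase into mitosis, and B-type cyclins accumulate toward mitosis. KRP proteins bind and inhibit the kinase complexes. In a grass leaf, division is concentrated near the base, while the blade consists of cells that no longer divide.

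All 10 genes were lower in cold than in control in the values as deposited, and for CDKA-1 and CDKB2-1 this direction turned under median-of-ratios scaling. Log2 fold changes below 0 were as common as 61.2% among the 20876 loci whose mean over both columns reached 1 FPKM, which are the loci compared here. On the log2(FPKM + 1) scale, 6 of 10 genes were at least 2-fold lower, against 19.2% of these loci. The other 4 genes differed by less than 2-fold. None of the 10 was at least 2-fold higher, against 12.5% of the loci. The 6 genes were the 3 of replication and the 3 B-type cyclins. The kinases and the inhibitor made up the rest. The median log2 fold change of the 10 genes was −1.07, and that of all compared loci was −0.27. Together the 10 genes held 79.5 FPKM in cold and 162 FPKM in control, so the cold sum was 49.1% of the control sum. Over all compared loci the sums were 551905 FPKM in cold and 581637 FPKM in control. Abundant genes weigh most in such a sum, and PCNA had the largest single difference of the 10 genes, −24.3 FPKM.

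The number past 2-fold depended on the scale set between the columns and on the pseudocount. It stayed at 6 when both columns were scaled to the same sum, against 19.3% of loci lower and 14.3% higher. A pseudocount of 0.1 also gave 6, against 25.3% of loci lower and 14.7% higher. So did no pseudocount, against 26.0% lower and 15.0% higher. Median-of-ratios scaling, which raises cold against control by a factor of 1.27, left 3 genes at least 2-fold lower, against 11.0% of loci, with 18.1% of loci higher. Quantile normalization, which moved the median of compared loci by 0.17, also left 3, against 14.2% of loci lower and 14.8% higher. In both cases these were PCNA, RNRL1 and RNRS1. With a pseudocount of 5, which shrinks weakly expressed genes, 2 remained, PCNA and RNRS1, against 7.75% of loci lower and 7.97% higher.

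**Figure D1:**
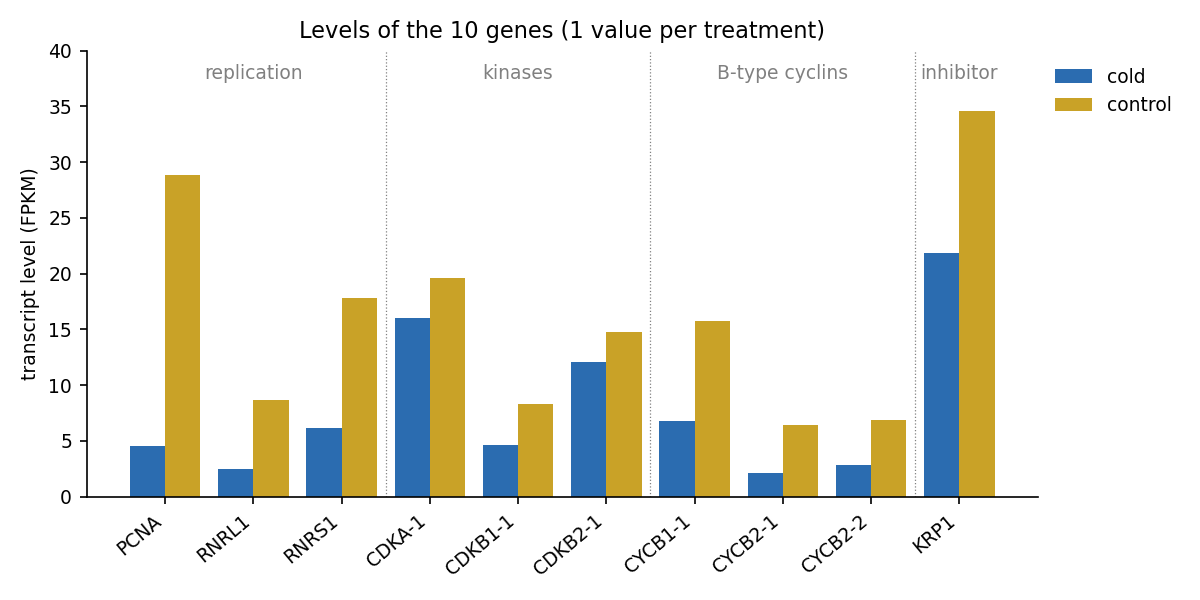
Transcript levels of the 10 genes in FPKM, with the authors' cold value as the left bar and the control value as the right bar of each pair, grouped by role; there are no error bars because each treatment has 1 value. PCNA is the second highest of the 10 genes in control (28.8 FPKM) and the seventh in cold (4.51 FPKM), while KRP1 is the highest in both.

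Of the 10 genes, PCNA differed most under each setting tried. PCNA (LOC_Os02g56130, chromosome 2) was listed at 4.51 FPKM in cold and 28.8 FPKM in control, a 6.39-fold lower level. On the log2(FPKM + 1) scale the difference was −2.44. Only 0.690% of the compared loci, 144 of 20876, had a lower log2 fold change than PCNA. Its control level lay above that of 81.2% of compared loci, and its cold level above that of 35.4%. Among the 10 genes, its place by level was the seventh in cold, against the second in control.

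RNRL1 (LOC_Os06g07210, chromosome 6) encodes the large, catalytic subunit of ribonucleotide reductase and is also known as V3, from a rice mutant with pale young leaves. It stood at 2.51 FPKM in cold and 8.71 FPKM in control, 3.47-fold lower, with a log2 difference of −1.47. RNRS1 (LOC_Os06g14620, chromosome 6) encodes the small subunit, which holds the radical needed for the reaction, and is also known as ST1, from a striped-leaf mutant. Its level was 6.11 FPKM in cold and 17.8 FPKM in control, 2.91-fold lower, with a log2 difference of −1.40. The small subunit was the more abundant of the pair in both treatments, at 2.43 times the large one in cold and 2.04 times in control. Both subunits thus had similar fold differences, smaller than that of PCNA. Lower log2 fold changes than theirs were found for 7.33% (RNRL1) and 8.38% (RNRS1) of compared loci. Summed, the 3 replication genes held 13.1 FPKM in cold and 55.3 FPKM in control, 23.7% of the control level.

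Kinase transcripts differed less. CDKA-1 (LOC_Os03g02680, chromosome 3), the kinase present throughout the cycle, was listed at 16.1 FPKM in cold and 19.6 FPKM in control, a log2 difference of −0.27. CDKB2-1 (LOC_Os08g40170, chromosome 8), of the class tied to G2 and mitosis, stood at 12.0 FPKM in cold and 14.8 FPKM in control, with a log2 difference of −0.28. Both sat at the median of the compared loci, 0.0017 (CDKA-1) and −0.0026 (CDKB2-1) from it on the log2 scale. Under median-of-ratios scaling, which moved that median by 0.30 to 0.03, they were at 0.056 (CDKA-1) and 0.046 (CDKB2-1). CDKB1-1 (LOC_Os01g67160, chromosome 1), the other B-type kinase, was at 4.65 FPKM in cold and 8.30 FPKM in control, 1.78-fold lower, with a log2 difference of −0.72. The B-type kinases therefore did not have the same ratio in the 2 columns. CDKB2-1 was 2.59 times as abundant as CDKB1-1 in cold and 1.78 times in control.

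All 3 B-type cyclins were past 2-fold as deposited. By the ratio of FPKM, CYCB2-1 (3.07-fold lower) differed more than the replication gene RNRS1 (2.91-fold lower), while on the log2(FPKM + 1) scale it differed less. CYCB1-1 (LOC_Os01g59120, chromosome 1), a cyclin of the class often used to mark cells in G2 and mitosis, had 6.76 FPKM in cold and 15.8 FPKM in control, 2.33-fold lower, with a log2 difference of −1.11. CYCB2-1 (LOC_Os04g47580, chromosome 4) was the least abundant of the 10 genes in both treatments, at 2.11 FPKM in cold and 6.46 FPKM in control. Its ratio was the most marked of the 3 cyclins, and its log2 difference was −1.26. CYCB2-2 (LOC_Os06g51110, chromosome 6), of the same class, stood at 2.86 FPKM in cold and 6.84 FPKM in control, 2.39-fold lower. At −1.02, it lay just past the 2-fold limit. The levels of the CYCB2 pair were close in control, where CYCB2-2 was at 1.06 times CYCB2-1, and further apart in cold, at 1.36 times. All 3 cyclins together held 11.7 FPKM in cold and 29.1 FPKM in control, 40.4% of the control level.

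KRP1 (LOC_Os02g52480, chromosome 2), the inhibitor, was the most abundant of the 10 genes in both treatments. It was listed at 21.9 FPKM in cold and 34.6 FPKM in control, 1.59-fold lower, a log2 difference of −0.64. Compared loci with a lower log2 fold change made up 33.1%. KRP1 was at 4.85 times the level of PCNA in cold and 1.20 times in control.

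**Figure D2:**
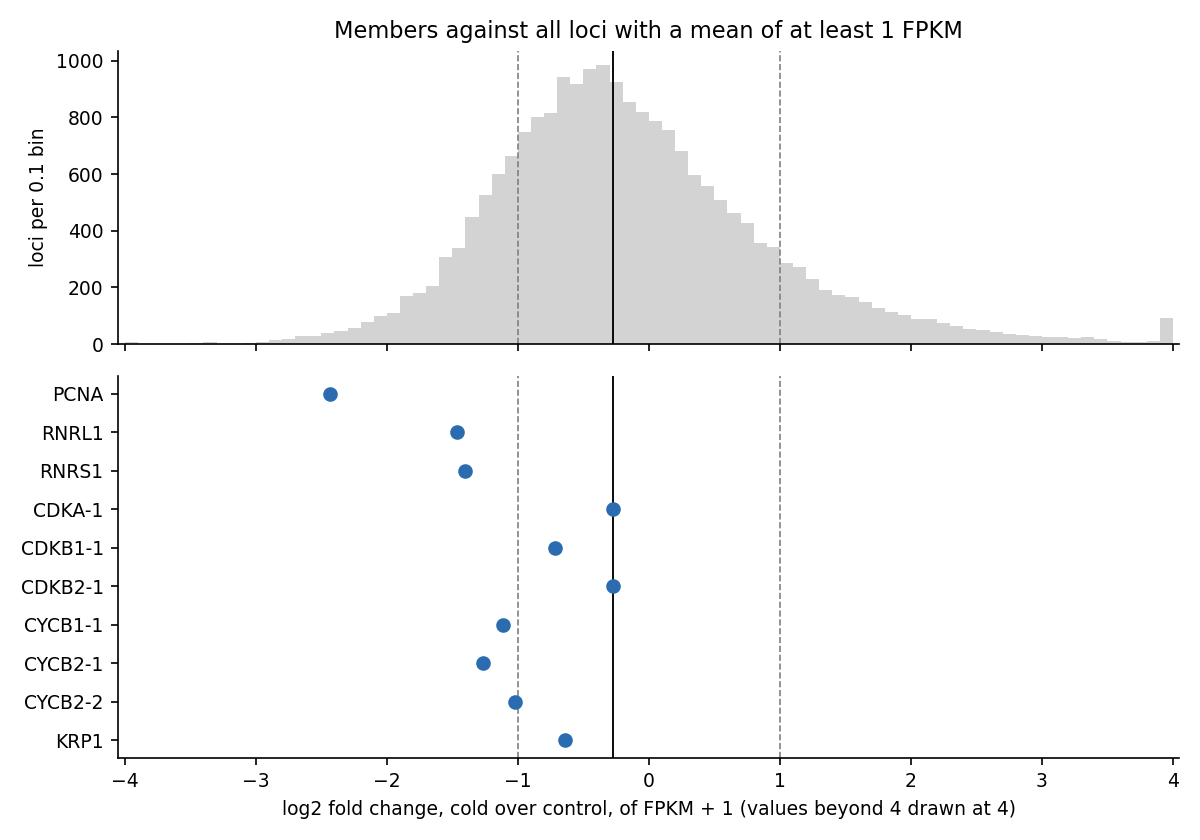
Log2 fold change of FPKM + 1, cold over control, for all 20876 compared loci (upper panel, number of loci per bin of width 0.1) and for the 10 genes (lower panel, 1 point each); the solid line is the median of all compared loci (−0.27) and dashed lines mark 2-fold. PCNA, RNRL1, RNRS1 and the 3 cyclins lie left of the lower dashed line, CYCB2-2 close to it, and CDKA-1 and CDKB2-1 lie on the median.

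Since a change of scale between the columns moves every gene, differences were also taken from the median of all compared loci. On this scale PCNA stood at −2.16, RNRL1 at −1.19, RNRS1 at −1.13, CYCB2-1 at −0.99, CYCB1-1 at −0.84 and CYCB2-2 at −0.75. CDKB1-1 stood at −0.44 and KRP1 at −0.37. The median of the 10 genes lay −0.79 from that of all compared loci as deposited, a distance that was −0.80 with median-of-ratios scaling, −0.75 with quantile normalization and −0.48 with a pseudocount of 5.

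Fold changes also vary with level, so each gene was set beside loci of its own level class. PCNA, RNRS1, CDKA-1, CDKB2-1, CYCB1-1 and KRP1 had means between 10 and 30 FPKM, a class of 6116 loci with quartiles of −0.73 and 0.50 around a median of −0.14. Within it 0.867% of loci had a lower log2 fold change than PCNA, 8.14% than RNRS1, 14.2% than CYCB1-1 and 28.6% than KRP1. For CDKA-1 this share was 44.7%, and for CDKB2-1 it was 44.4%, so both were near the middle of their class. RNRL1, CDKB1-1, CYCB2-1 and CYCB2-2 belonged to the 6536 loci between 3 and 10 FPKM, whose quartiles were −0.92 and 0.25 around a median of −0.37. There the shares were 8.35% for RNRL1, 13.2% for CYCB2-1, 20.96% for CYCB2-2 and 34.1% for CDKB1-1. Loci at least 2-fold lower made up 17.0% of the first class and 21.96% of the second.

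Ratios of FPKM taken within a column do not change when the whole column is multiplied by 1 factor. Quantile normalization is not such a scaling, and the ratios were not recomputed under it. Relative to CDKA-1, PCNA was at 0.281 in cold and 1.47 in control, so that PCNA exceeded CDKA-1 in control and was well below it in cold. RNRL1 was at 0.156 in cold and 0.444 in control, and RNRS1 at 0.381 in cold and 0.908 in control. Of the cyclins, CYCB1-1 was at 0.421 of CDKA-1 in cold and 0.804 in control. CYCB2-1 was at 0.131 in cold and 0.329 in control, and CYCB2-2 at 0.178 in cold and 0.349 in control. The ratio of CDKB2-1 to CDKA-1 was 0.750 in cold and 0.755 in control, the closest of the 9 ratios. The sum of the 3 cyclins was 0.974 of CDKB2-1 in cold and 1.96 in control. With CDKB1-1 added to CDKB2-1, and CDKA-1 left out, the ratio of the cyclins to these B-type kinases was 0.702 in cold and 1.26 in control. Only 1 value stands behind each gene and treatment here too.

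**Figure D3:**
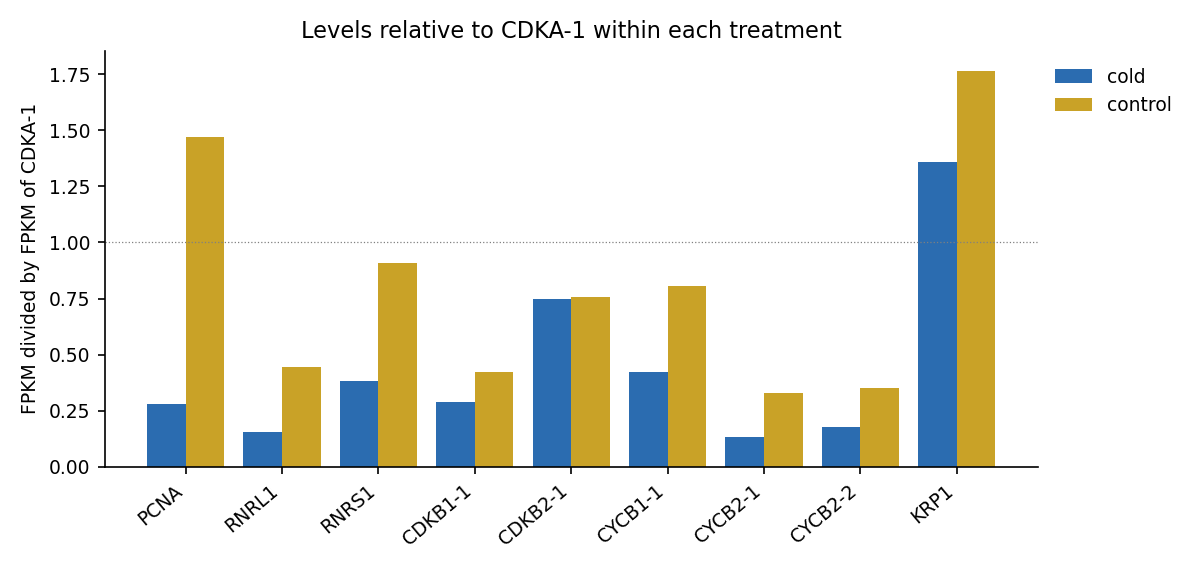
FPKM of each of the other 9 genes divided by the FPKM of CDKA-1 in the same column, with cold as the left bar and control as the right bar; the dotted line marks a ratio of 1. CDKB2-1 has nearly the same ratio in both treatments (0.750 in cold, 0.755 in control), while that of PCNA is 0.281 in cold and 1.47 in control.

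**Figure D4:**
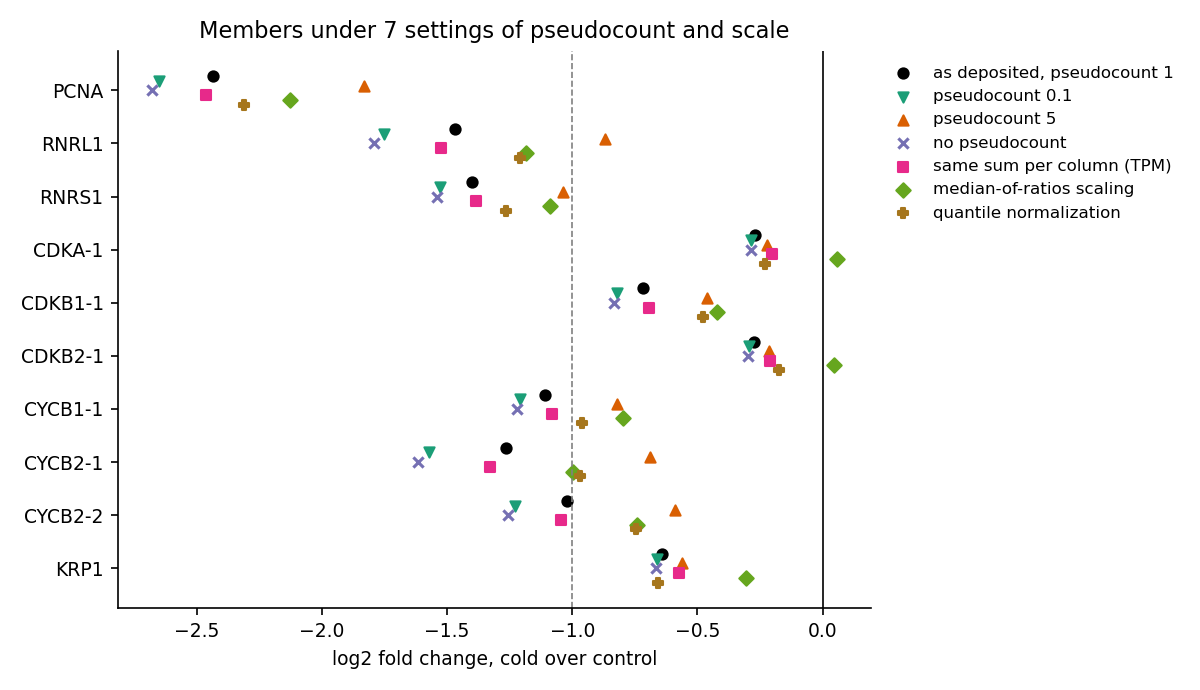
Log2 fold change of each gene, cold over control, under the deposited scale with a pseudocount of 1 and under 6 alternatives of pseudocount and scale; the dashed line marks 2-fold lower and the solid line no difference. PCNA lies between −2.68 and −1.83, and CDKA-1 and CDKB2-1 cross the solid line with median-of-ratios scaling, at 0.056 and 0.046.

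The range over the 7 settings shows how far each value rests on these choices. PCNA ranged from −2.68 to −1.83 and RNRS1 from −1.54 to −1.04, so both stayed past the 2-fold limit under each of the 7 settings. RNRL1 ranged from −1.79 to −0.87, CYCB2-1 from −1.62 to −0.69, CYCB1-1 from −1.22 to −0.80 and CYCB2-2 from −1.26 to −0.59, and these 4 crossed the limit. CDKB1-1 (−0.83 to −0.42) and KRP1 (−0.66 to −0.31) stayed below 0 and within 2-fold.

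Related loci limit single values. The reference gene table lists another A-type kinase, CDKA-2, apart from CDKA-1, and the sources used here do not say how reads that match several loci were counted. By name, CYCB1-1 fits 2 genes of the same reference. Values of CDKA-1, of the similar CYCB2 genes and of any other member with a similar locus are uncertain to that extent.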

How the data were processed

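FPKM values per locus were deposited by the authors in 1 column for cold and 1 for control. The sources used here do not say whether a column is a library, pooled reads or a mean, or which genome build, annotation and strand setting were used. Per the submitters' processing notes, the tools, named without roles, included HISAT2 2.1.0, SAMtools, Bowtie, featureCounts 1.6.4, FastQC, Trim Galore 0.4.3 and Trimmomatic 0.39.

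With 1 value per treatment, the limma test foreseen for single libraries was not run. Fold changes are differences of log2(FPKM + 1), cold minus control, except where a fold of FPKM is named. Loci whose mean reached 1 FPKM were compared (20876 of 55801), and the limit was 2-fold. Level classes had edges at 1, 3, 10, 30, 100, 300 and 1000 FPKM. Alternatives were pseudocounts of 0.1, 5 and none, 3 scalings and 3 filters.

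The members and lists were chosen with earlier results of these data known, and all 10 members are named. Their names come with the member list, where kinases and cyclins carry a semicolon (CDKA;1). The hyphen is the other spelling in a RefSeq gene table (assembly ASM3414082v1, 39387 genes). It holds names of 8 members (not RNRL1 and RNRS1), each on the chromosome written in the identifier, and CYCB1-1 fits 2 of its genes. It holds no member's locus identifier, so no further pathway genes were counted. In simulated columns with 20872 compared loci, 4-fold changes were planted at loci whose control reached 5 FPKM. Of the planted changes, 100% passed the 2-fold limit in each direction. Changes of that size lie past the limit by design, so this outcome checks the calculation only. It cannot show how precise the deposited values are, since their depth and replicate spread are unknown here. Python 3.11.15, numpy 2.4.6, pandas 2.3.3 and matplotlib 3.10.9 were used.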

Additional observations from a re-analysis of the deposited data

How the results depend on the processing

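Of 111 values recomputed under other pseudocounts, scalings and filters, 92 stayed within set limits (0.5 for a gene's log2 fold change, 0.1 for medians, 1.5-fold for counts of genes, 10 percentage points for shares of loci), 17 moved and 2 reversed. Median-of-ratios scaling reversed CDKA-1 (0.056) and CDKB2-1 (0.046). It gave 3 genes at least 2-fold lower, against 11.0% of loci, and a median of −0.77 over the 10, against 0.03 over compared loci. Quantile normalization gave 3 genes, against 14.2% of loci, and a median of −0.85, against −0.10 over compared loci. With a pseudocount of 5 there were 2 genes, a median of −0.64 that lay −0.48 from that of compared loci, and 7.75% of loci at least 2-fold lower, with PCNA at −1.83, RNRL1 at −0.87 and CYCB2-1 at −0.69. The median of the 10 genes and its distance from that of compared loci were −1.22 and −0.90 with a pseudocount of 0.1, and −1.24 and −0.92 with none. With no filter, 7.34% of loci were at least 2-fold lower and the distance was −1.07, since loci at or near 0 then enter. A mean of at least 5 FPKM kept 8 of the 10 genes among the compared loci. Which scale is right was not tested. No paired analysis was possible because the table has a single value per treatment, and for the same reason the values without each replicate were not run. Without the depth, no counting error can be given for any value.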

Other observations

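The loci next to the 10 genes in identifier order differed in both directions. Of the 20 flanking loci, 16 had a mean of at least 1 FPKM. Of these, 2 were at least 2-fold lower in cold, against 19.2% of compared loci, and 3 were at least 2-fold higher, against 12.5%. With so few loci these counts say nothing particular about the neighbours. The 5 past the limit were picked after their values were seen. The locus before PCNA, LOC_Os02g56120, was listed at 14.6 FPKM in cold and 1.05 FPKM in control. The locus before RNRL1, LOC_Os06g07200, was listed at 20.6 FPKM in cold and 4.72 FPKM in control. The locus before CDKB2-1, LOC_Os08g40160, was listed at 121 FPKM in cold and 59.2 FPKM in control. Those lower by at least 2-fold were the locus after RNRL1, LOC_Os06g07220, at 0.689 FPKM in cold and 3.41 FPKM in control, and the locus before CYCB2-2, LOC_Os06g51100, at 1.19 FPKM in cold and 4.11 FPKM in control. Whether adjacent loci share reads with these genes was not tested.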
